A study of Mus musculus with 6 samples.

Results

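The transcripts of glycolysis and the citric acid cycle were followed in CD4 T cells that differ in Blimp-1, the transcriptional repressor encoded by Prdm1. Members were chosen by name: 37 gene symbols, of which 18 encode glycolytic proteins (3 sugar or lactate transporters and 15 enzymes), 1 the regulator Hif1a, 3 proteins of the pyruvate dehydrogenase step and 15 citric acid cycle enzymes. They matched 38 of the 28914 rows of the table, because Aldoa has 2 Ensembl identifiers, and 36 of these rows reached 1 FPKM in at least 2 libraries and were tested. Hk2 and the second Aldoa row did not. CKO replicate 1 is 1 of the 2 libraries labelled CKO. It held the highest value of 11 of the 18 glycolytic and 10 of the 15 citric acid cycle members. Over all 18 and all 15, its median ratio to the WT mean was 1.92 and 1.37. This library lay apart from the other 5 over all genes tested, and the share of all genes highest in it was not computed. Hif1a was high in both libraries labelled CKO, and the glucose transporters Slc2a1 and Slc2a3 were slightly higher in both overexpressing libraries. The range of the 3 group means was set against the largest library difference within a group. It was smaller in 15 of the 18 glycolytic and 14 of the 15 citric acid cycle members. This comparison favours that outcome even where groups do not differ. No member passed the threshold in any comparison.

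Glycolysis splits glucose into pyruvate in the cytosol, and lactate dehydrogenase can turn the pyruvate into lactate, which leaves the cell through monocarboxylate transporters. Pyruvate that enters the mitochondrion is oxidised to acetyl-CoA by the pyruvate dehydrogenase complex and then burned in the citric acid cycle. Resting T cells rely mainly on mitochondrial oxidation, activated T cells take up more glucose and make more lactate, and HIF-1α, the protein of Hif1a, activates glucose transporter, glycolytic enzyme and Pdk1 genes when oxygen is low or the T cell receptor is engaged.

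RNA was sequenced from total CD4 T cells sorted from the spleen of NOD mice, which are prone to autoimmune diabetes, at 12 weeks of age and at steady state, with no added receptor stimulus. There were 3 groups of 2 libraries: WT (control), CKO (labelled as Blimp-1 knockout) and BTg (labelled as Blimp-1 overexpression). The sources used here do not give the deleted exons, the driver of the deletion or the promoter of the transgene. No label says that libraries of 1 group are from different mice, and a p-value then reflects library-to-library spread alone, which may be technical. Prdm1 stood at 1.72 and 2.36 exon-length FPKM in WT, 3.19 and 2.52 in CKO and 73.7 and 113 in BTg. It rose in BTg against WT (log2 difference 4.04, SE 0.26, limma adjusted p = 0.0221). That call was lost without any one library, with a replicate block and under 3 other settings (adjusted p over all alternatives 0.00488 to 0.540). CKO differed from WT by 0.19 (SE 0.26, adjusted p = 1). A sum over the whole gene cannot check a deletion of part of it, so each direction drawn from CKO rests on the label.

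Depth was 14958458 to 17799091 reads a library. The leading principal component carried 56.47% of the variance, and on it CKO replicate 1 lay at 69.9 and the other 5 libraries between -35.1 and -1.2. The summed level of 11 neutrophil markers was 15427 exon-length FPKM in that library, 320 in CKO replicate 2, 80.9 and 243 in WT and 44.5 and 46.6 in BTg; Retnlg had 0 reads in BTg replicate 1, and no other of these markers had 0 reads in any library. The 9 plasma cell markers summed to 2393 and 624 in CKO, 415 and 401 in WT and 350 and 224 in BTg, and none had 0 reads. Most of each sum was Jchain, at 2045 and 496 in CKO, 352 and 310 in WT and 282 and 159 in BTg. Of the 10 T cell markers, none had 0 reads, and their sum was 1205 exon-length FPKM in CKO replicate 1, the lowest, and between 1601 and 2381 in the other 5. The 20 cell cycle genes summed to 1001 in CKO replicate 1, 664 in CKO replicate 2, 307 and 770 in WT and 323 and 354 in BTg. The 10 monocyte and macrophage markers summed to 953 and 220 in CKO, 192 and 172 in WT and 150 and 112 in BTg. The 11 erythroid markers summed to 913 and 1121 in CKO, 352 and 1667 in WT and 308 and 401 in BTg. The 2 WT libraries thus also differed from each other. The 9 B cell markers summed to 67.0 and 34.4 in CKO, 18.2 and 34.4 in WT and 15.7 and 18.8 in BTg. The part of other cell types in the member results below was not tested, and in bulk RNA fewer cells of a type and less RNA per cell cannot be told apart.

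**Figure D1:**
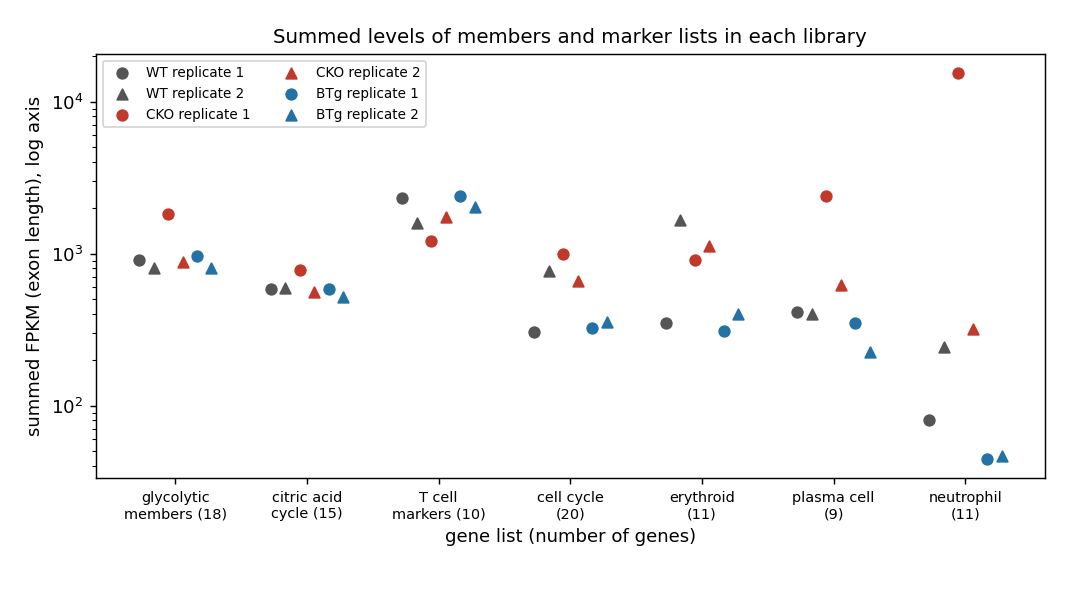
Summed level (log axis, exon-length FPKM) of the 18 glycolytic members, the 15 citric acid cycle members and 5 marker lists in each of the 6 libraries; 1 point is 1 library. CKO replicate 1 has the highest glycolytic sum, 1837, and a neutrophil sum of 15427.

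The deposited FPKM divide by a genomic span that includes introns, which is fair for 1 gene between libraries but not between genes. Levels are therefore given with merged exon length in its place (exon-length FPKM), and differences as log2 of the deposited FPKM plus 1, which understates the change of low genes. Differences are signed as the first group named minus the second.

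In WT the most abundant members were enzymes of glycolysis. Ldha, the lactate dehydrogenase subunit of glycolytic tissues, stood at 175 ± 21.9 exon-length FPKM (mean ± SD, n = 2, as for the next values). It was followed by the pyruvate kinase Pkm at 122 ± 33.999, Gapdh at 108 ± 6.54, the aldolase Aldoa at 99.6 ± 1.05, the enolase Eno1 at 98.5 ± 15.8 and the phosphoglycerate kinase Pgk1 at 76.1 ± 20.7 exon-length FPKM. The most abundant citric acid cycle members lay next, with Sdhd at 76.0 ± 5.35, Sdha at 73.9 ± 0.979 and Mdh1 at 70.8 ± 35.1. From Pkm to Mdh1, neighbours in this order differed by less than the larger of their SDs, except Gapdh and Aldoa, and Eno1 and Pgk1, so most places in it are not resolved. The lowest members were the inducible hexokinase Hk2 at 0.694 ± 0.555 and the lactate exporter Slc16a3 at 1.17 ± 0.416 exon-length FPKM. Several abundant members (Gapdh, Pgk1, Aldoa, Ldha, Tpi1 and Eno1 among them) belong to families with processed copies elsewhere in the genome, and how shared reads were counted is not given. Eno1 was 2.17 to 2.39 times its near-identical copy Eno1b in every library, so these 2 genes cannot be told apart here.

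The promoters of 4 members that were highest in CKO replicate 1 are shown because HIF-1α recognises a short element whose core is ACGTG, and that of Gapdh because it was high in the same library and holds no such core. Each line gives the 250 bases before the RefSeq start on GRCm38.p6, read 5′ to 3′ on the gene's strand. ACGTG and its reverse complement CACGT are in capitals, and the 2 can overlap as CACGTG. In Hif1a, Ldha and Gapdh the RefSeq start lies 6492, 4329 and 694 bases inside the gene as annotated by GENCODE. Their windows therefore lie within the annotated genes and not upstream of them.
Ldha (chr7:46845554-46845803, + strand): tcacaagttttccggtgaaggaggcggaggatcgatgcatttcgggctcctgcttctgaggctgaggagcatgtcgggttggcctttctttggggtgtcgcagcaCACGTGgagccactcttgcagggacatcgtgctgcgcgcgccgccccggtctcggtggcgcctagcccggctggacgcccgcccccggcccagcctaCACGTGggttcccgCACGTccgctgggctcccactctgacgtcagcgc
Pgk1 (chrX:106186850-106187099, + strand): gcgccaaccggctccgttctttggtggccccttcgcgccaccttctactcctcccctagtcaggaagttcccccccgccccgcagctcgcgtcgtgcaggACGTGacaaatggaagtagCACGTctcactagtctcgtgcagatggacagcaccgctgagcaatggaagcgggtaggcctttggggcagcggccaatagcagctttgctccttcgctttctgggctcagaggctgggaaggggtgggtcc
Pgam1 (chr19:41911621-41911870, + strand): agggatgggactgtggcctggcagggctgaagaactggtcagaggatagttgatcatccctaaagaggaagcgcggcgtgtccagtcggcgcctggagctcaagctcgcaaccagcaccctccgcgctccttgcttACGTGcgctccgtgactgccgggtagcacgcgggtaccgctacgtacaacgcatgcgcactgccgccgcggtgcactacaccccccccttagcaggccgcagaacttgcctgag
Hif1a (chr12:73907617-73907866, + strand): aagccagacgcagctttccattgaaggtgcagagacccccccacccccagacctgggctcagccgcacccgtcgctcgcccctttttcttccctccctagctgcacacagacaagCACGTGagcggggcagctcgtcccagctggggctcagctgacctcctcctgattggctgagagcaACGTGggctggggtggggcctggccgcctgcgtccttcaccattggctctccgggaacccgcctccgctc
Gapdh (chr6:125165774-125166023, - strand): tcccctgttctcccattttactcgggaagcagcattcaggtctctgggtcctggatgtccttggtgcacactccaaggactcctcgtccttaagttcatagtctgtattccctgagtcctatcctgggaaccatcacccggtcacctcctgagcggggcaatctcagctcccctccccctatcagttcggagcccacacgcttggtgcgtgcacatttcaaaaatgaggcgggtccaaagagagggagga
The cores lie 145 to 34 bases before the start in Ldha (5 matches on either strand, some overlapping), 150 and 131 in Pgk1, 114 in Pgam1 and 135 to 70 in Hif1a (3 matches). Promoters of 34 of the 37 symbols were in the RefSeq table. The core was found in 15 of these 34 (44.1%): in 9 of 17 glycolytic members (52.9%), 4 of 13 citric acid cycle members (30.8%), and in Hif1a and Pdhb. It was found in 4998 of all 27025 genes of the table (18.5%). These include genes not tested here, and base composition was not matched. Of further glycolytic members highest in CKO replicate 1, Aldoa, Hk2, Pkm and Slc16a3 held the core, and Gpi1, Tpi1 and Eno1 did not. Slc2a1, lowest in that library, held it. The motif AGNGAAAG, a core of the Blimp-1 binding element, was found on either strand in 1 of the 34 (2.94%), Eno1, and in 2275 of the 27025 genes (8.42%). A match is a description of the letters in this window and not of a bound site.

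Glucose enters T cells through Slc2a1 (GLUT1) and Slc2a3 (GLUT3). Slc2a1 (chromosome 4, 119108711 to 119137983, GRCm38) stood at 9.53 and 10.3 exon-length FPKM in WT, 7.56 and 11.2 in CKO and 13.9 and 13.2 in BTg. Both BTg libraries lay above all 4 others, and CKO replicate 1 was the lowest of the 6. Its log2 difference was 0.28 (SE 0.21, limma adjusted p = 1) in BTg against WT and 0.34 (SE 0.21, adjusted p = 0.684) in BTg against CKO. Slc2a3 (chromosome 6, 122727809 to 122801640) stood at 8.17 and 9.72 exon-length FPKM in WT, 10.1 and 9.36 in CKO and 10.8 and 13.2 in BTg. Again both BTg libraries were above the other 4. The log2 differences were 0.36 (SE 0.21, limma adjusted p = 1) against WT and 0.26 (SE 0.21, adjusted p = 0.732) against CKO. Pfkfb3, which makes the fructose bisphosphate that activates phosphofructokinase, stood at 5.93 and 6.86 exon-length FPKM in WT, 8.34 and 7.14 in CKO and 7.82 and 8.74 in BTg. Here both altered groups lay above WT, with a log2 difference of 0.25 (SE 0.19, limma adjusted p = 1) in BTg against WT. These 3 differences are each under 1.5-fold on the exon-length scale of the means and are not distinguishable from the spread of the libraries in this fit.

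Slc16a3 (MCT4), which exports lactate from highly glycolytic cells, stood at 0.878 and 1.47 exon-length FPKM in WT, 7.80 and 1.58 in CKO and 0.814 and 0.943 in BTg. CKO replicate 1 held 738 reads of it and no other library more than 149. The log2 difference in CKO against WT was 1.02 (SE 0.51, limma adjusted p = 1), and 0.22 without that library. Slc16a1, the other main lactate transporter and not a member, was 2.69 times Slc16a3 in CKO replicate 1 and 8.98 to 13.5 times elsewhere on the exon-length scale.

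Hexokinases commit glucose to the cell. Hk1, the constitutive form, ranged from 17.9 to 32.3 exon-length FPKM, and both extremes were WT libraries. Hk2 stood at 0.301 and 1.09 exon-length FPKM in WT, 5.32 and 1.86 in CKO and 0.362 and 0.560 in BTg, and both CKO libraries were above the other 4. It did not pass the filter, and limma voom on the recovered reads gave a log2 difference of 2.48 (SE 0.75, adjusted p = 0.739) in CKO against WT and -2.79 (SE 0.78, adjusted p = 0.241) in BTg against CKO. Hk1 was 29.8 to 64.7 times Hk2 in WT and BTg, 16.0 times in CKO replicate 2 and 4.598 times in CKO replicate 1. Hk3, a further hexokinase abundant in myeloid cells and not a member, stood at 1.56 and 3.01 exon-length FPKM in WT, 42.7 and 4.10 in CKO and 1.28 and 1.80 in BTg. In CKO replicate 1, the library with the highest neutrophil, plasma cell, and monocyte and macrophage sums, Hk3 exceeded Hk1. The part of other cell types in this was not tested.

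The next enzymes were high in the same library. Gpi1, the phosphoglucose isomerase, stood at 35.7 and 41.2 exon-length FPKM in WT, 80.4 and 44.2 in CKO and 40.9 and 40.9 in BTg. Its log2 difference in CKO against WT was 0.62 (SE 0.35, limma adjusted p = 1), although CKO replicate 2 exceeded the higher WT library by little. The phosphofructokinases Pfkl and Pfkp, which catalyse the committed step, did not follow, with 11.6 to 15.4 and 13.8 to 18.2 exon-length FPKM over the 6 libraries and, for Pfkp, the lowest value in CKO replicate 1. Aldoa stood at 98.8 and 100.3 exon-length FPKM in WT, 190.0 and 105.6 in CKO and 110.0 and 102.9 in BTg, which put all 4 altered libraries above WT. Its log2 difference was 0.51 (SE 0.37, limma adjusted p = 1) in CKO against WT and 0.09 (SE 0.37, adjusted p = 1) in BTg against WT.

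Tpi1, the triose phosphate isomerase, had the largest ratio of highest to lowest library among the members tested, after Slc16a3. It stood at 29.7 and 34.4 exon-length FPKM in WT, 133 and 34.2 in CKO and 27.3 and 21.5 in BTg. CKO replicate 1 was 4.15 times the WT mean and CKO replicate 2 was 1.07 times, so the CKO and WT libraries overlapped. Both BTg libraries were below all others, with a log2 difference of -0.39 (SE 0.64, limma adjusted p = 1) against WT and -1.46 (SE 0.64, adjusted p = 0.587) against CKO. Gapdh stood at 113 and 104 exon-length FPKM in WT, 327 and 122 in CKO and 114 and 90.3 in BTg. The log2 difference in CKO against WT was 0.88 (SE 0.51, limma adjusted p = 1). Pgk1 stood at 90.7 and 61.5 exon-length FPKM in WT, 222 and 71.2 in CKO and 78.4 and 55.4 in BTg, and CKO replicate 2 lay within the WT range. Gapdh is often used to scale other transcripts, and in CKO replicate 1 it was 3.02 times the WT mean.

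Pgam1 (chromosome 19, 41911923 to 41918660), the phosphoglycerate mutase, was the glycolytic member most clearly high in both CKO libraries besides Hk2. It stood at 15.9 and 23.0 exon-length FPKM in WT, 68.3 and 31.5 in CKO and 19.5 and 19.5 in BTg, from 562 to 2411 reads. The CKO libraries lay above the other 4, at 3.51 and 1.62 times the WT mean. The log2 difference was 1.17 (SE 0.39, unadjusted p = 0.0244, limma adjusted p = 1) in CKO against WT and -1.15 (SE 0.39, adjusted p = 0.5001) in BTg against CKO. Without CKO replicate 1 the first of these was 0.64 (SE 0.27, limma adjusted p = 0.996).

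The last steps were high in CKO replicate 1 by smaller factors. Eno1 stood at 110 and 87.4 exon-length FPKM in WT, 191 and 88.1 in CKO and 109 and 92.3 in BTg. Pkm stood at 146 and 98.4 in WT, 245 and 117 in CKO and 153 and 112 in BTg, and Ldha at 190 and 159, 279 and 161, and 222 and 163, in the same order and on the same scale. For these 3 genes CKO replicate 2 lay inside the WT range. Ldhb, the lactate dehydrogenase subunit that favours pyruvate formation, ranged from 6.05 to 11.6 exon-length FPKM and was highest in WT replicate 1. Ldha was 16.4 and 20.4 times Ldhb in WT, 35.7 and 18.2 times in CKO and 27.3 and 26.9 times in BTg.

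**Figure D2:**
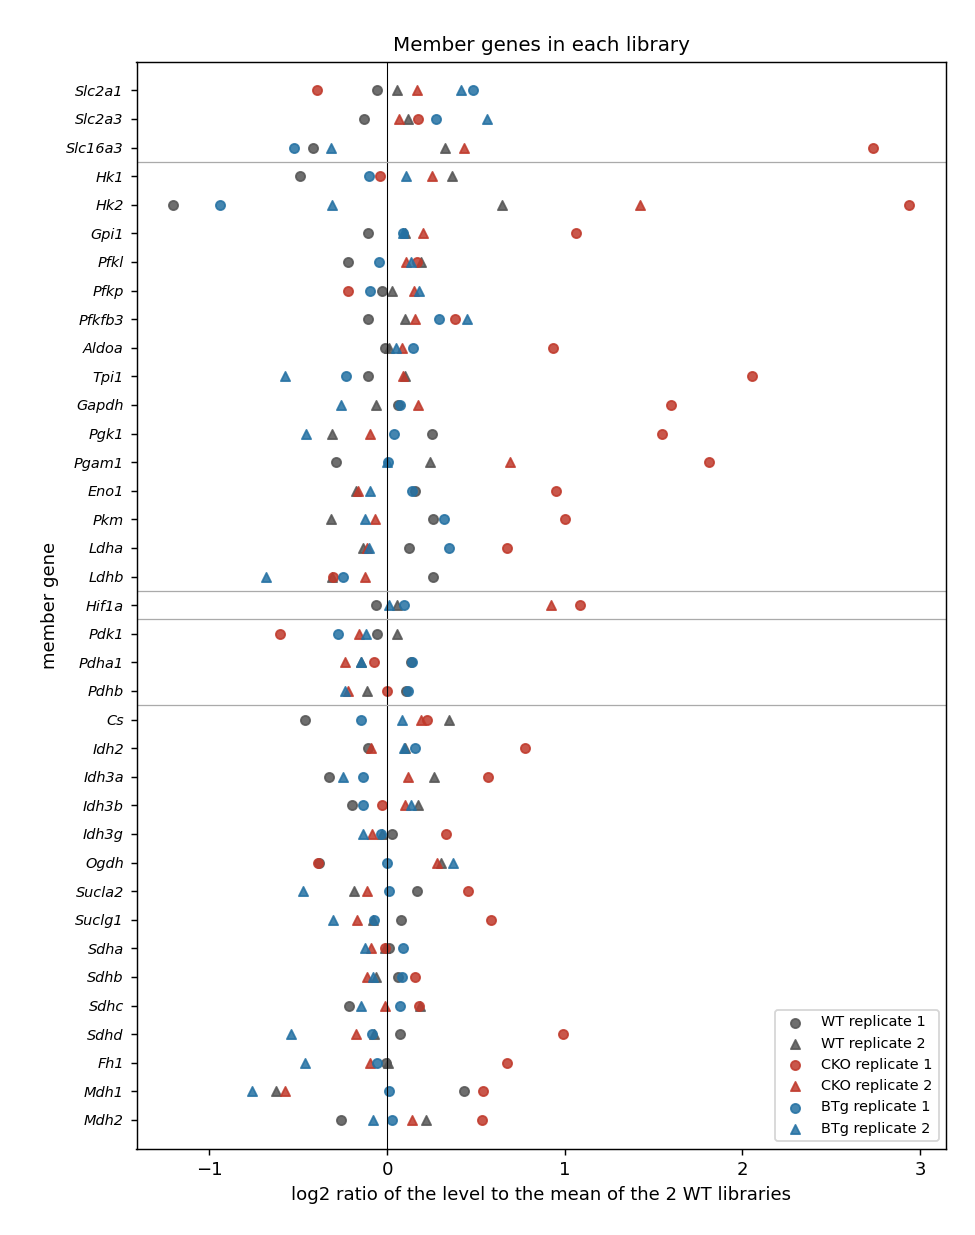
The 37 member genes in rows (transporters, glycolytic enzymes, Hif1a, pyruvate dehydrogenase step, citric acid cycle, from top to bottom) and, on the x axis, the log2 ratio of the exon-length level in each library to the mean of the 2 WT libraries; 1 point is 1 library. CKO replicate 1 lies far to the right for 11 glycolytic members, both CKO libraries do so for Hif1a, and the 2 BTg libraries are to the right of the others for Slc2a1 and Slc2a3.

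Hif1a (ENSMUSG00000021109, chromosome 12, 73901375 to 73947530) had the smallest unadjusted p of the members in CKO against WT. It stood at 15.003 and 16.3 exon-length FPKM in WT, 33.2 and 29.7 in CKO and 16.7 and 15.7 in BTg. Both CKO libraries were about the same height, at 2.12 and 1.90 times the WT mean, and lay well above the other 4, while WT and BTg overlapped. The log2 difference was 0.84 (SE 0.19, unadjusted p = 0.0048, limma adjusted p = 0.876) in CKO against WT and -0.80 (SE 0.19, unadjusted p = 0.00607, adjusted p = 0.358) in BTg against CKO, which share the CKO libraries. Over the alternatives the adjusted p for CKO against WT ran from 0.1465 to 1. Without CKO replicate 1 the difference was 0.77 (SE 0.19, limma adjusted p = 0.996), and limma voom on the recovered reads gave 1.004 (SE 0.27, adjusted p = 0.689). The antisense gene Gm15283 overlaps it and held at most 43 reads. The protein-coding gene Gm49321 overlaps it on the same strand and is absent from the deposited values, so they assign no reads to it. Whether reads that fell on both genes were left uncounted is not given. In CKO replicate 2 the neutrophil sum was 320 exon-length FPKM, against 80.9 and 243 in WT. The plasma cell sum, most of it Jchain, was 624, against 415 and 401.

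Genes of the HIF pathway outside glycolysis did not, where tested, share this pattern as a list. Of 15 such genes 11 were tested, and in CKO against WT 2 were higher and 9 lower, with a median log2 difference of -0.19 against -0.03 over all genes tested. Without CKO replicate 1 it was 8 higher and 3 lower, with a median of 0.09 against 0.11 over all genes. Ero1l, an oxidase of protein folding that HIF-1α activates, stood at 7.78 and 9.23 exon-length FPKM in WT, 15.5 and 10.6 in CKO and 7.57 and 7.96 in BTg. CKO exceeded WT by 0.50 (SE 0.24, limma adjusted p = 1) on the log2 scale. Egln3, a HIF prolyl hydroxylase that is itself induced by HIF and was named after its values were seen, stood at 3.02 and 2.34 exon-length FPKM in WT, 10.97 and 4.83 in CKO and 2.09 and 1.88 in BTg. Ddit4, an mTOR inhibitor induced by stress, stood at 296 and 260 exon-length FPKM in WT, 92.2 and 336 in CKO and 122 and 165 in BTg, and was low in both BTg libraries (log2 difference against WT -0.96, SE 0.62, limma adjusted p = 1). Egln1, the main oxygen sensor of the pathway, was higher in BTg than in WT by 0.31 (SE 0.23, limma adjusted p = 1) on the log2 scale.

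**Figure D3:**
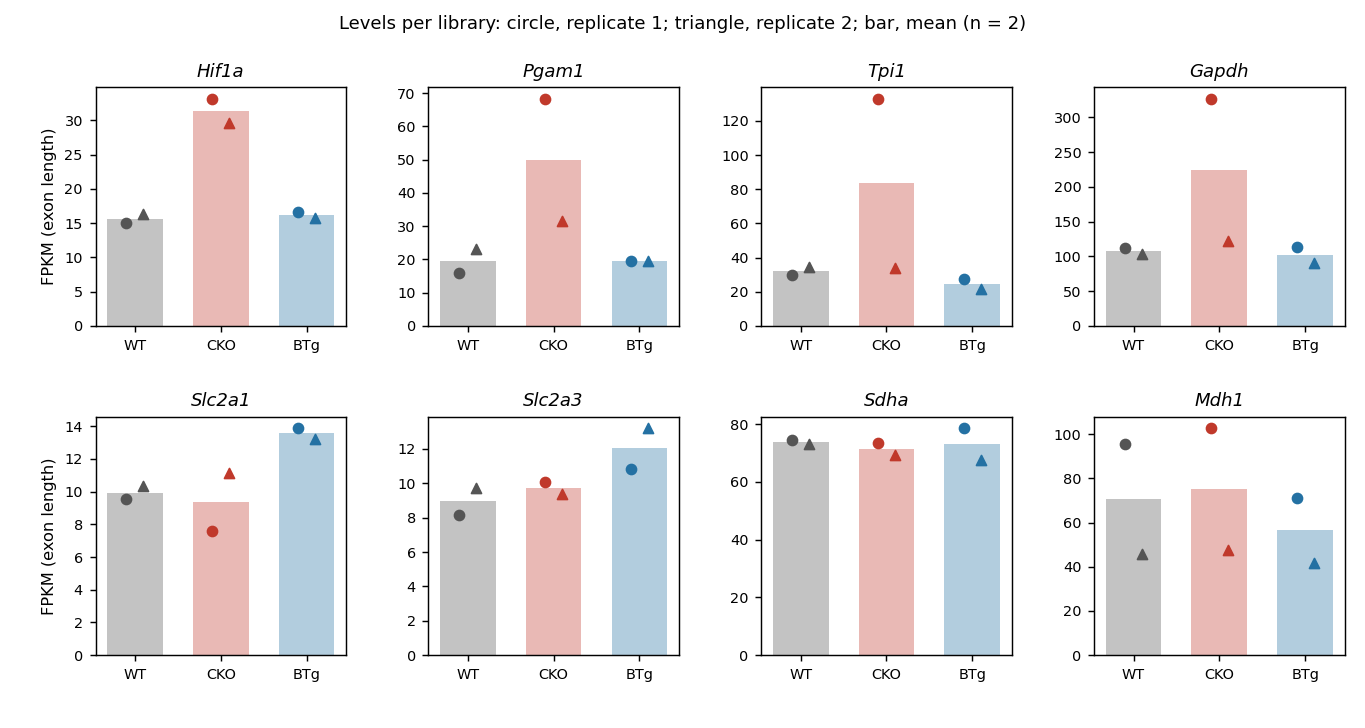
Exon-length FPKM of 8 members in WT, CKO and BTg, each panel with its own y axis from 0; circles are replicate 1, triangles replicate 2 and bars the mean (n = 2). Both CKO points are high for Hif1a and Pgam1, 1 is high for Tpi1 and Gapdh, both BTg points are high for Slc2a1 and Slc2a3, Sdha is level, and for Mdh1 each circle is above its triangle.

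At the entry of pyruvate into the mitochondrion little separated the groups. Pdk1, the kinase that switches off pyruvate dehydrogenase and a known HIF target, stood at 6.82 and 7.37 exon-length FPKM in WT, 4.68 and 6.36 in CKO and 5.86 and 6.53 in BTg. Both altered groups lay below WT, by -0.30 (SE 0.21, limma adjusted p = 1) and -0.16 (SE 0.21, adjusted p = 1) on the log2 scale, on the other side of WT from Hif1a in CKO. Pdha1 and Pdhb, the subunits of the first enzyme of the complex, ranged from 29.3 to 37.9 and from 29.95 to 38.3 exon-length FPKM, and each was higher in the library numbered 1 than in the one numbered 2 in all 3 groups. Of 9 tested further genes of the complex and its control, 5 were higher and 4 lower in CKO than in WT. Pdk3, another kinase of the complex, stood at 5.27 and 9.21 exon-length FPKM in WT, 15.4 and 9.42 in CKO and 5.68 and 5.06 in BTg (log2 difference in CKO against WT 0.60, SE 0.30, limma adjusted p = 1), and Pdp1, a phosphatase that reverses the kinases, had -0.50 (SE 0.27, adjusted p = 1).

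Citric acid cycle members were more even. Succinate dehydrogenase, which also serves as complex II of the respiratory chain, shows the range among subunits of 1 enzyme. Its catalytic subunit Sdha stood at 74.6 and 73.2 exon-length FPKM in WT, 73.3 and 69.3 in CKO and 78.7 and 67.7 in BTg, and Sdhb ranged from 49.2 to 59.3. Sdhc ranged from 19.2 to 25.3 exon-length FPKM. Only the membrane anchor Sdhd, of these 4 genes, stood out, at 79.8 and 72.2 exon-length FPKM in WT, 151 and 67.4 in CKO and 71.7 and 52.3 in BTg. CKO replicate 1 was 1.99 times the WT mean, both BTg libraries were below WT, and the log2 difference in BTg against WT was -0.28 (SE 0.40, limma adjusted p = 1).

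Fh1, the fumarase, stood at 21.7 and 21.9 exon-length FPKM in WT, 34.7 and 20.4 in CKO and 20.9 and 15.8 in BTg, with a log2 difference of -0.23 (SE 0.31, limma adjusted p = 1) in BTg against WT. Idh2, the mitochondrial NADP-dependent isocitrate dehydrogenase, stood at 25.6 and 29.6 in WT, 47.3 and 25.9 in CKO and 30.8 and 29.4 in BTg on the same scale. In both, as in Sdhd, CKO replicate 1 was high and CKO replicate 2 lay near or below the lower WT library. The 3 subunits of the NAD-dependent enzyme, Idh3a, Idh3b and Idh3g, ranged from 12.0 to 22.3, 33.2 to 42.8 and 39.0 to 54.0 exon-length FPKM, and Idh3g was lower in both BTg libraries than in WT by -0.08 (SE 0.30, limma adjusted p = 1) on the log2 scale. The succinyl-CoA ligase subunits Sucla2 and Suclg1 ranged from 9.39 to 17.8 and from 14.2 to 26.3 exon-length FPKM, and Mdh2, the mitochondrial malate dehydrogenase, from 41.4 to 71.6. CKO replicate 1 held the highest value of each of these 3.

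For Mdh1 and Ogdh the library number separated the values more than the group did. Mdh1, the cytosolic malate dehydrogenase of the malate-aspartate shuttle, stood at 95.6 and 45.9 exon-length FPKM in WT, 103 and 47.5 in CKO and 71.2 and 41.8 in BTg. The library numbered 1 was 2.08, 2.16 and 1.70 times the one numbered 2. Ogdh, a subunit of the oxoglutarate dehydrogenase complex, ran the other way, at 27.3 and 43.9, 27.2 and 43.2, and 35.6 and 46.0 in the same order. Citrate synthase, Cs, which opens the cycle, stood at 22.5 and 39.4 exon-length FPKM in WT, 36.1 and 35.3 in CKO and 28.0 and 32.8 in BTg. In all, 14 of the 37 members were higher and 5 lower in the library numbered 1 in all 3 groups. Of these, 7 and 2 were in the citric acid cycle. The share of all genes with either pattern was not computed. Over all genes tested, libraries with the same number also deviated together, with correlations of 0.17 to 0.47. The labels do not say what the library numbers stand for. In 32 of the 37 members the range of the 3 group means was below the largest library difference within a group (exon-length scale). The 5 others were Hif1a, Slc2a1, Slc2a3, Pfkfb3 and Idh3a. The largest of 3 differences between single libraries is set against means of 2, which favours this outcome even where groups do not differ. Its share over all genes was not computed.

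Glycolytic and citric acid cycle members were then compared within each library. The 18 glycolytic members summed to 912 and 810 exon-length FPKM in WT, 1837 and 877 in CKO and 967 and 801 in BTg, and the 15 citric acid cycle members to 585 and 591, 786 and 560, and 587 and 520. The glycolytic sum was thus 1.56 and 1.37 times the other in WT, 2.34 and 1.57 times in CKO and 1.65 and 1.54 times in BTg. Only CKO replicate 1 lay apart. With 2 libraries against 2, an exact permutation test cannot give a p under 0.333 (two-sided), so the ratio was not tested.

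Member by member, CKO replicate 1 was at least 1.5 times the WT mean in 11 of 18 glycolytic members and in 4 of 15 citric acid cycle members, and at least 2 times in 8 and 0 of them. CKO replicate 2 reached 1.5 times in 2 glycolytic members, Hk2 and Pgam1, and in 0 citric acid cycle members. The shares of all genes that reached these ratios were not computed. The median ratio to the WT mean was 1.92 and 1.09 for glycolytic members in CKO replicates 1 and 2, and 1.37 and 0.939 for citric acid cycle members. The single member that lay near the line of equal ratios at about 2-fold was Hif1a.

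**Figure D4:**
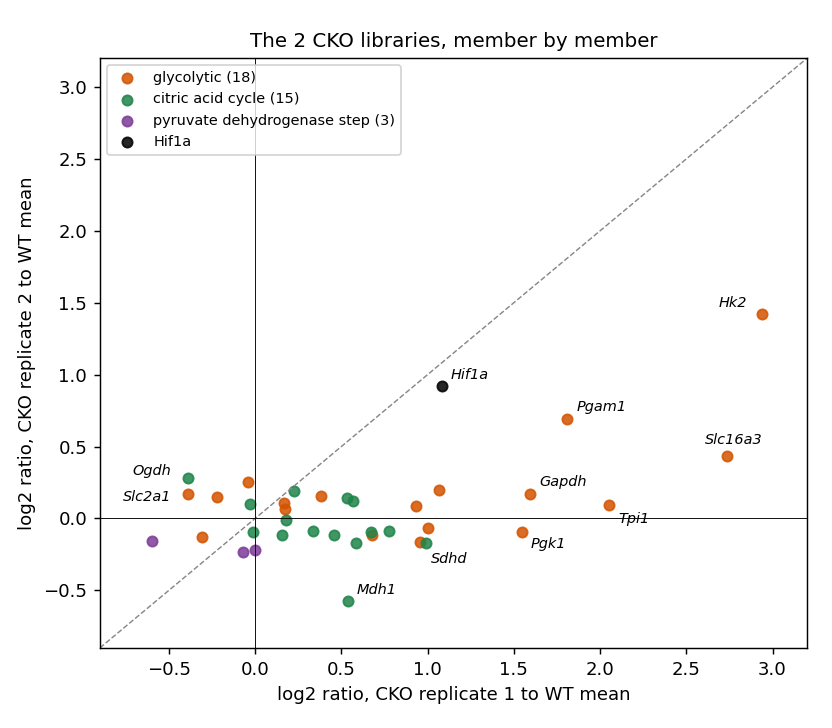
Log2 ratio of each member to the WT mean in CKO replicate 1 (x axis) and CKO replicate 2 (y axis), exon-length scale; 1 point is 1 gene and the dashed line marks equal ratios. Of the 18 glycolytic points 11 are at least 1.5-fold on the x axis, and of these only Hk2 and Pgam1 reach 1.5-fold on the y axis; Hif1a lies close to the dashed line.

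In the fit over all genes, CKO against WT called 0 of 10798 genes (0%) at limma adjusted p under 0.05 and had 454 (4.2%) below 0.05 before adjustment; limma voom on recovered reads called 0 of 15927. Of the 36 tested members 0 passed and 2, Pgam1 and Hif1a, had unadjusted p under 0.05. The 17 tested glycolytic members had 14 higher and 3 lower, with a median log2 difference of 0.40 against -0.03 over all genes tested, of which 45.38% were higher. The 15 citric acid cycle members had 13 higher and 2 lower, with a median of 0.17, and the 3 of the pyruvate dehydrogenase step were all lower, with a median of -0.14. Libraries did not overlap for 7 members higher in CKO, beside 11.5% of all genes, and for 1 lower, Pdk1, beside 8.96%. All 7 but Hif1a were glycolytic, and 0 citric acid cycle members were among them. Without CKO replicate 1 the glycolytic median was 0.10 (12 higher, 5 lower) and the citric acid cycle median -0.085 (5 higher, 10 lower), while the median over all genes was 0.11.

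BTg against WT called 2 of 10798 genes (0.0185%), and 175 (1.62%) had unadjusted p under 0.05. Of the 36 tested members, limma called 0, limma voom on recovered reads also 0, and 0 had unadjusted p under 0.05. Glycolytic members had 12 higher and 5 lower, with a median of 0.04, and citric acid cycle members 5 higher and 10 lower, with a median of -0.02, against 0.02 over all genes. Libraries did not overlap for 4 members higher in BTg (Slc2a3, Slc2a1, Pfkfb3 and Aldoa), beside 14.7% of all genes, and for 5 lower (Tpi1, Sdhd, Fh1, Pdk1 and Idh3g), beside 10.4%. Both shares of the 36 are near the background.

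BTg against CKO, which shares its libraries with the comparisons above, called 2 genes (0.0185%), and 949 (8.79%) had unadjusted p under 0.05. Of the members 0 passed by limma or limma voom, and the same 2, Pgam1 and Hif1a, had unadjusted p under 0.05. In BTg, 4 glycolytic members were higher and 13 lower (median -0.36), and citric acid cycle members 2 higher and 13 lower, with a median of -0.22, against 0.06 over all genes. Libraries did not overlap for 2 members higher in BTg, Slc2a1 and Slc2a3, beside 17.8% of all genes, and for 9 lower, beside 21.8%. By size, the lower ones began with Tpi1 (-1.46), Slc16a3 (-1.18, SE 0.51, limma adjusted p = 0.587), Pgam1 (-1.15), Gapdh (-0.98, SE 0.51, adjusted p = 0.637), Hif1a (-0.80) and Gpi1 (-0.53, SE 0.35, adjusted p = 0.693). Without CKO replicate 2, where the lone CKO library is assumed to vary like the other groups, Tpi1 (-2.43, limma adjusted p = 0.0463) and Slc16a3 (-1.99, adjusted p = 0.0439) passed. Without CKO replicate 1 the glycolytic median was -0.10 and the citric acid cycle median -0.072.

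The pentose phosphate pathway, which branches from glucose 6-phosphate to make NADPH and ribose, had all 7 genes higher in CKO than in WT; the median log2 difference was 0.53, and 0 passed. G6pdx, its first enzyme, stood at 15.5 and 19.3 exon-length FPKM in WT, 77.8 and 19.5 in CKO and 14.6 and 15.8 in BTg, and Pgd, its second oxidative enzyme, at 9.06 and 13.9, 55.7 and 14.5, and 11.1 and 11.9. The log2 differences in CKO against WT were 1.004 (SE 0.54, limma adjusted p = 1) and 1.29 (SE 0.62, adjusted p = 1). The high values again belonged to CKO replicate 1. That library also held the highest neutrophil, plasma cell, cell cycle, and monocyte and macrophage sums. The part of other cell types or of cell cycle in these values was not tested. Without that library 6 of the 7 were higher, with a median of 0.18 against 0.11 over all genes. Of 9 further glycolytic isozymes, 6 were higher and 3 lower in CKO than in WT, among them Hk3 (1.64, SE 0.76, limma adjusted p = 1) and the aldolase Aldoc (0.53, SE 0.20, adjusted p = 1). Aldoc, present at 0.623 to 1.47 exon-length FPKM, also differed by 0.61 (SE 0.20, limma adjusted p = 1) in BTg against WT.

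Among 6 tested further citric acid cycle enzymes, 5 were higher and 1, the malic enzyme Me2, lower in CKO (-0.17, SE 0.20, limma adjusted p = 1). Of 7 tested genes of glycolysis control and lactate transport, 3 were higher and 4 lower in CKO against WT, and 4 higher and 3 lower without CKO replicate 1. Txnip, which lowers glucose uptake, stood at 292 and 245 exon-length FPKM in WT, 82.7 and 254 in CKO and 302 and 312 in BTg (log2 difference in BTg against CKO 1.08, SE 0.56, limma adjusted p = 0.636). Of 10 genes of glutamine use and the malate-aspartate shuttle 8 were higher in CKO, with Slc25a10, a mitochondrial dicarboxylate carrier, at 0.41 (SE 0.25, limma adjusted p = 1).

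Of 13 tested metabolic regulators, 2 were higher and 11 lower in CKO than in WT, with a median of -0.085; without CKO replicate 1, 8 were higher and 5 lower, with a median of 0.049 against 0.11 over all genes. Of these regulators 1 was, like Hif1a, high in both CKO libraries. Irf4, a transcription factor of activated T cells and plasma cells that also stands among the plasma cell markers, stood at 4.11 and 6.58 exon-length FPKM in WT, 15.7 and 12.0 in CKO and 2.90 and 4.46 in BTg. Its log2 difference was 0.97 (SE 0.25, limma adjusted p = 0.934) in CKO against WT and -1.26 (SE 0.25, adjusted p = 0.262) in BTg against CKO. Myc, a driver of glycolytic genes in activated T cells, overlapped between groups, at 22.0 and 36.7, 25.1 and 33.3, and 20.9 and 23.8 exon-length FPKM, except that both BTg libraries were below both CKO libraries. Foxo1, which keeps T cells quiescent, stood at 26.1 and 29.5 exon-length FPKM in WT, 11.6 and 27.6 in CKO and 35.4 and 40.6 in BTg (log2 difference in BTg against WT 0.35, SE 0.30, limma adjusted p = 1).

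The genes whose pattern over the 6 libraries was most like the mean of the 17 tested glycolytic members were Pdia4 (Pearson r = 0.9995), the immunoglobulin segment Igkv1-110 (r = 0.9968), Gpc1 (r = 0.9962), P4hb (r = 0.9954) and the processed pseudogene Atp6v0c-ps2 (r = 0.9952). These are descriptions over 6 points, of which CKO replicate 1 lies apart from the rest. Pdia4 and P4hb encode protein disulphide isomerases of the endoplasmic reticulum. Pdia4 stood at 38.3 and 40.8 exon-length FPKM in WT, 132 and 47.2 in CKO and 44.2 and 39.9 in BTg.

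Of the members, 20 overlap another annotated gene and 10 a protein-coding one, Gapdh (Iffo1), Tpi1 (Spsb2), Pfkp (Pitrm1), Mdh1 (Wdpcp), Fh1 (Kmo) and Idh3b (Nop56) among them on the opposite strand. The strand setting of the counting is not given, so reads from such pairs may have been lost or mixed. The adjusted p of the glycolytic members was 1 for each of the 17 in CKO against WT and in BTg against WT, and 0.5001 to 0.930 in BTg against CKO, with SEs of 0.19 to 0.64 on the log2 scale. For the citric acid cycle the SEs were 0.21 to 0.53.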

How the data were processed

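The authors deposited FPKM, 1 column per library, from total RNA of CD4 T cells extracted with TRIzol (per the labels' protocols). Trimmomatic 0.38, HISAT2 2.1.0, featureCounts 1.6.0 and the GRCm38 build are named per the submitters' processing notes; the sources used here do not give their settings, annotation release or strand. All 28914 identifiers matched GENCODE M21. Whole reads were recovered from the deposited FPKM: with gene length taken as the median span of its transcripts on the genome, 100.0% of values above 0 were whole within 0.01, against 21.2 to 22.9% with merged exon length, and summed to 14958458 to 17799091 reads a library.

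The 10798 genes that reached 1 FPKM in 2 or more libraries were fitted as log2(FPKM + 1) with limma 3.58.1 (R 4.3.3; lmFit, eBayes with a trend), all 6 libraries in one fit without a block; the threshold was a Benjamini-Hochberg adjusted p under 0.05 over all genes. The fit was also run on simulated data with independent noise and no library lying apart. That run does not show how the fit behaves with a library such as CKO replicate 1. Groups and replicate numbers come from the sample titles; outside its brackets the title of BTg replicate 2 also ends in 1. Replicates of a group differed by more than counting noise (chi-square per degree of freedom 60.07 to 268.8).

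The members and all lists were chosen with earlier results of these data known. Named were, per comparison, up to 6 members per direction whose libraries did not overlap, ordered by size, any member past the threshold, up to 2 genes per further list and direction by the same rule, Prdm1, and the 5 genes with at least 5 FPKM whose log2 values correlated best with the glycolytic mean. Other genes with values per library serve to describe the lists. Alternatives were pseudocounts of 0.1 and 5, no filter or a filter of 5 FPKM, median centring, quantile normalization, merged exon length, no trend, limma voom on recovered reads (at least 10 in 2 libraries), a replicate block and leaving out each library. Promoter sequences are RefSeq's (GRCm38.p6), a gene counted where any of its starts held the motif. Figures were drawn with matplotlib 3.10.9.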

Additional observations from a re-analysis of the deposited data

How the results depend on the processing

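No member passed the threshold in any comparison under any alternative, except Tpi1 and Slc16a3 in BTg against CKO without CKO replicate 2. Of 1340 values of 86 gene differences under alternatives, 1317 kept their direction and side of the threshold, 5 passed it, 18 lost it, all 18 of them differences of Prdm1, and 0 turned. Apart from Prdm1, these differences were named because their libraries did not overlap. Leaving out a library or changing the pseudocount cannot turn such a difference. None of them but Prdm1 passed the threshold in the main fit, so these counts say little about robustness. Prdm1 lost its call in BTg against WT with a pseudocount of 5, a filter of 5 FPKM, quantile normalization, the replicate block and without any one library, and its limma adjusted p ran from 0.00488 to 0.540 over all alternatives. The number of genes called over the whole table moved more. CKO against WT called 65 with no filter and 0 to 81 when libraries were left out, the 81 without CKO replicate 2. BTg against WT called 0 with a pseudocount of 5, quantile normalization or a replicate block, 46 with no filter, 1 with a filter of 5 FPKM, 4 with limma voom and 0 without any one library. BTg against CKO called 0 with a pseudocount of 5, quantile normalization or a replicate block, 81 with no filter, 5 with a filter of 5 FPKM, 9 with merged exon length, 7 with limma voom and 0 to 255 when libraries were left out, the 255 without CKO replicate 2. The cause of these shifts was not tested.

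Leaving out libraries, the glycolytic median log2 difference ran from 0.10 to 0.93 in CKO against WT and from -0.83 to -0.10 in BTg against CKO, and the citric acid cycle median from -0.085 to 0.44 in CKO against WT, from -0.12 to 0.021 in BTg against WT and from -0.54 to -0.072 in BTg against CKO. In both comparisons with CKO the extremes came from leaving out CKO replicate 1 or CKO replicate 2. The citric acid cycle median therefore has no fixed direction in CKO against WT. Libraries with the same number deviated together (correlation over genes 0.17 between WT and CKO, 0.47 between WT and BTg and 0.46 between CKO and BTg), but with 2 pairs and no label that explains the numbers they were not treated as paired. With the replicate block Hif1a had the same difference in CKO against WT, 0.84 (SE 0.14, limma adjusted p = 0.573). Scaling alternatives moved the median of all genes by less than 0.1 on the log2 scale. With 2 libraries a group, whose spread far exceeds counting noise, a lack of calls does not show that levels were equal.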
